A study of Danio rerio with 4 samples.

Results

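Glycolysis is the chain of cytosolic reactions that splits glucose into pyruvate, and glucose enters the cell through facilitative transporters before hexokinase traps it as glucose-6-phosphate. Most enzymes of the chain exist in zebrafish as several gene copies, many of them pairs left by the genome duplication of teleost fishes, and copies of an enzyme can differ in the tissues that use them. The heart draws most of its energy from fatty acids and oxidative metabolism, and glycolysis with lactate production is known for its use under low oxygen and in proliferating cardiomyocytes. The genes described here are a list of 34 glucose transporter, glycolytic enzyme and regulator genes, taken by symbol from the authors' deposited table of 1 heart comparison. Of these, 31 were present among the 14962 genes of that table. The liver-type pyruvate kinase gene pklr was found in the count libraries only, which hold 31462 genes each. The genes pfkma and aldoca were matched in neither source and were not analysed here.

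The study compared hearts of adult Ekkwill zebrafish given vehicle with hearts of the same strain given alfacalcidol, a synthetic precursor that the liver converts to active vitamin D. Fish were injected once a day over 3 days and their hearts collected 24 hours after the final injection, and neither a dose nor a genotype is in the sources used here. Each group has 2 libraries of read counts, and nothing in the labels says whether these came from separate fish or from pools, so p-values from the counts measure only the spread between libraries. The authors' deposited table lists fold change, mean level and p for each gene but no value per library, so no error could be set beside its fold changes. It does not name its numerator. A positive value was read as higher with alfacalcidol from the sign of cyp24a1, the vitamin D 24-hydroxylase gene and a known target of the vitamin D receptor, which the authors' deposited table lists at a log2 fold change of 1.53 (edgeR adjusted p 8.19e-05), and every direction below rests on that reading.

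The count libraries did not carry the RNA profile of the table. All 12 cardiomyocyte markers summed to 95331 CPM, the reads of a gene scaled to a common library total, by the authors' deposited table, and to between 2639 and 2802 CPM in the 4 libraries labelled as heart. The 9 skeletal muscle markers present in both summed to 2942 CPM by the authors' deposited table against 41268 to 47423 CPM in the libraries. The 6 epidermal markers in the libraries summed to between 17779 and 27738 CPM. No matched marker of any of the lists was at 0 in all 4 libraries. The libraries held 31427486 to 39572163 counts. They are called by their labels and are described after the table.

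In the table, 8 of the 31 measured genes were lower and 0 were higher. Both listed glucose transporter genes were lower, and so was a single copy at each of 6 enzymatic steps: hk2, gpib, aldoaa, gapdh, eno3 and pkmb. The 8 decreases in the authors' deposited table lay between -0.61 and -1.12 on the log2 scale, with a median of -0.72, against a median of -0.84 over all 1379 genes called lower. A call is an adjusted p under 0.05 over all genes of the authors' deposited table (edgeR per the submitters' processing notes, Benjamini-Hochberg). That rule called 20.1% of all genes in the authors' deposited table, 9.22% as lower and 10.9% as higher, beside 25.8% of the members, all lower. Genes with many reads were called lower more often. At 100 CPM or more, the authors' deposited table called 19.5% of 1183 genes lower, and so were 6 of the 21 members at that level, or 28.6%. Under 100 CPM it was 8.33% of genes and 2 of 10 members. Calls higher were 39 of the 1183 genes at 100 CPM or more and 1588 of 13779 genes under it. The 0 higher members are read against those counts, since most members were at the upper level. No test of the list as a whole was made. The share among members at 100 CPM or more is read against 19.5%, and that under 100 CPM against 8.33%. Of the 21 members at 100 CPM or more, 16 had negative values, with a median log2 fold change of -0.10. Of the 1183 genes there, 885 were negative, with a median of -0.18. Under 100 CPM the medians were -0.05 for members and 0.03 for all genes. The 23 members without a call had log2 fold changes between -0.44 and 0.63 with a median of -0.02, and 13 of them were negative. In heart RNA, fewer cells of a type and less RNA per cell cannot be told apart.

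**Figure D1:**
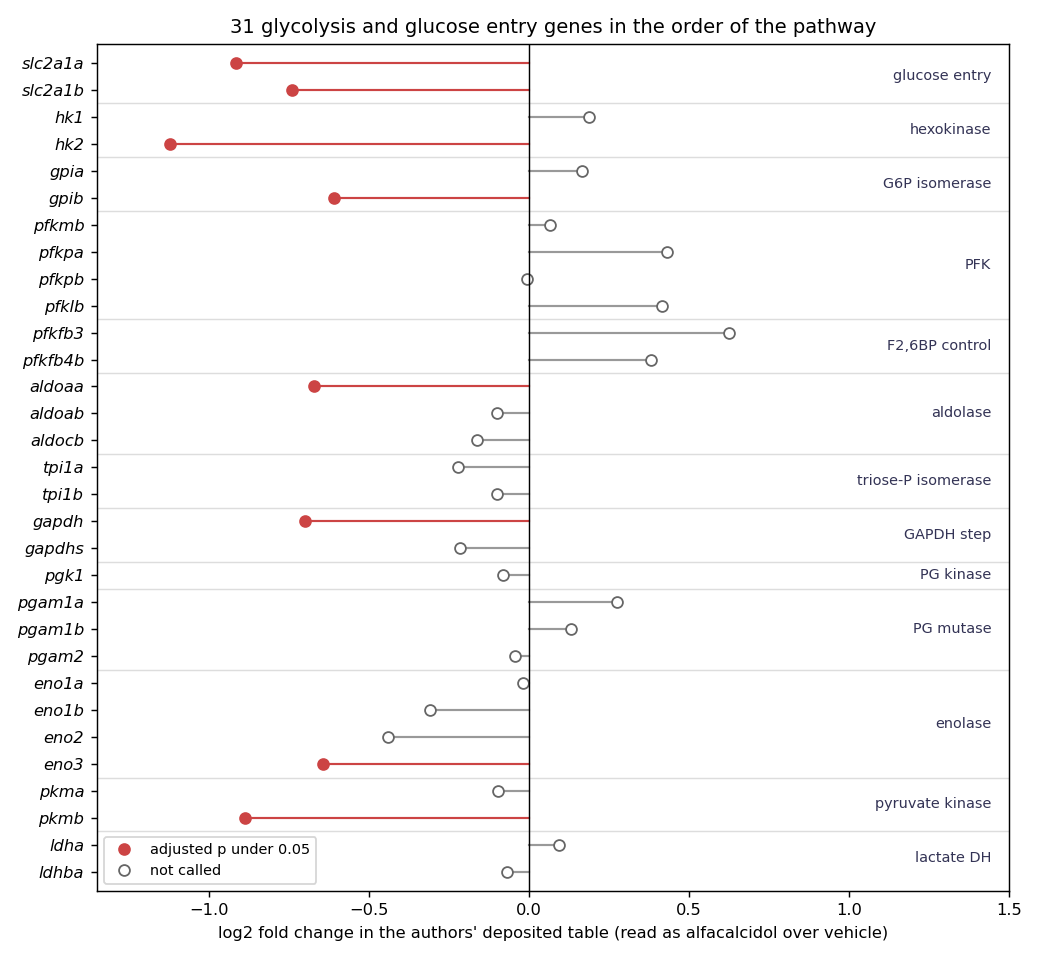
Log2 fold change of the 31 measured genes in the authors' deposited table, in pathway order from glucose entry at the top to lactate dehydrogenase at the bottom, with filled points for an adjusted p under 0.05. The 8 filled points all lie left of 0, and every step with a filled point except glucose entry also has an open one.

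Both listed genes of glucose entry were lower. Glucose transporter genes outside the list, counted among the connected genes below, had no call in the authors' deposited table. Their values ran from -0.65 to 0.76 on the log2 scale, at levels of only 1.52 to 8.30 CPM. The absence of a call there is not read as an unchanged level. The genes slc2a1a and slc2a1b both encode copies of GLUT1, the transporter for basal glucose uptake. The gene slc2a1a (chromosome 23, 22273916 to 22286084, GRCz10) fell by 0.92 on the log2 scale, or 1.89-fold, at a mean of 7.85 CPM per the authors' deposited table (edgeR adjusted p 0.000472). Its copy slc2a1b (chromosome 6, 48069936 to 48095583) was 1.67-fold lower at 137 CPM per the authors' deposited table (edgeR adjusted p 0.00133). Of the pair's reads in the authors' deposited table, 94.6% belonged to slc2a1b. Read levels are not corrected for transcript length, so a level is a measure of the reads behind a value. Shares of a pair's reads and read-weighted means therefore compare reads between copies, not numbers of transcripts.

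Hexokinase phosphorylates glucose, and 1 of its 2 measured copies was lower. The gene hk2, which encodes the hexokinase known in mammals as the insulin-responsive form of muscle, was 2.18-fold lower per the authors' deposited table (chromosome 5, 13370084 to 13503972; log2 fold change -1.12, edgeR adjusted p 0.00338). That was the largest change of any member, and it rests on a mean of 4.77 CPM. The gene hk1, which encodes the housekeeping form, had a log2 fold change of 0.19 at 782 CPM per the authors' deposited table (edgeR adjusted p 0.541). Because hk1 supplied 99.4% of the pair's reads, the read-weighted mean of the step was 0.18 on the log2 scale per the authors' deposited table.

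The isomerase that converts glucose-6-phosphate to fructose-6-phosphate also had 1 lower copy. The gene gpib was 1.53-fold lower at 312 CPM per the authors' deposited table (chromosome 18, 512830 to 1011132; edgeR adjusted p 0.00787), while gpia stood at a log2 fold change of 0.16 and 268 CPM (edgeR adjusted p 0.594). Reads of gpib are uncertain. Its annotated span of 498 kb, against a median of 21.5 kb over the members, overlaps 6 other genes of the authors' deposited table. None of those 6 was called in the authors' deposited table. The one with the most reads, the respiratory chain gene cox5ab, stood at -0.06 and 193 CPM, and the others between -0.19 and 0.66 on the log2 scale.

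Phosphofructokinase, the main point of control in the pathway, had no call. The muscle-type gene pfkmb stood at a log2 fold change of 0.07 and the platelet-type gene pfkpb at -0.01 in the authors' deposited table (edgeR adjusted p 0.852 and 0.996). The genes pfkpa and pfklb stood at 0.43 and 0.41 in the authors' deposited table (edgeR adjusted p 0.101 and 0.243). The bifunctional enzymes of the PFKFB family set the level of fructose-2,6-bisphosphate, the strongest activator of phosphofructokinase. Both listed genes of that family had positive values without a call in the authors' deposited table. They were pfkfb3 at 0.63 and 17.1 CPM (edgeR adjusted p 0.0578) and pfkfb4b at 0.38 and 13.2 CPM (0.264). Genes of the family outside the list went both ways, also without a call. There pfkfb4a stood at -0.61 and 46.0 CPM (edgeR adjusted p 0.0783), pfkfb2b at -0.38 and pfkfb2a at 0.38. The family as a whole therefore had no common direction. The value of pfkfb3 was the highest of all 31 members.

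Aldolase and glyceraldehyde-3-phosphate dehydrogenase had 4565 and 10731 summed CPM over their measured copies per the authors' deposited table. Aldolase cleaves the 6-carbon sugar, and aldoaa, a copy of the muscle-type enzyme gene, was 1.59-fold lower at 3289.8 CPM per the authors' deposited table (chromosome 3, 39425141 to 39435194; edgeR adjusted p 0.00147). Its copy aldoab stood at -0.10 and the brain-type gene aldocb at -0.16 on the log2 scale per the authors' deposited table (edgeR adjusted p 0.761 and 0.626). The oxidizing step is encoded by gapdh, which was 1.63-fold lower at 10596 CPM per the authors' deposited table (chromosome 16, 17284687 to 17292143; log2 fold change -0.70, edgeR adjusted p 0.00115). The gene gapdhs, whose mammalian counterpart is specific to sperm, stood at -0.22 and 135 CPM per the authors' deposited table (edgeR adjusted p 0.605). The gene gapdh is often used as a reference gene in PCR.

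Triosephosphate isomerase, phosphoglycerate kinase and phosphoglycerate mutase had no call. The triosephosphate isomerase genes tpi1a and tpi1b stood at -0.22 and -0.10, and pgk1, the gene of the first ATP-forming kinase, at -0.08 in the authors' deposited table (edgeR adjusted p 0.570, 0.759 and 0.811). The phosphoglycerate mutase genes pgam1a, pgam1b and pgam2 lay between -0.05 and 0.28 on the log2 scale per the authors' deposited table, the last of them the muscle form.

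Enolase makes phosphoenolpyruvate, and of its 4 genes only the muscle form eno3 was called, 1.56-fold lower at 1940.1 CPM per the authors' deposited table (chromosome 23, 44795344 to 44807255; edgeR adjusted p 0.00764). It supplied 76.4% of the step's reads in the authors' deposited table and overlaps the gene eif4e2rs1, which stood at 0.00 on the log2 scale and 11.4 CPM. The ubiquitous form eno1a was at -0.02 and 594 CPM per the authors' deposited table. Its copy eno1b and the neuronal form eno2 were at -0.31 and -0.44 with 2.35 and 1.18 CPM.

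Pyruvate kinase, which forms pyruvate and ATP, had the call with the lowest p of the list. The gene pkmb was 1.85-fold lower at 107 CPM per the authors' deposited table (chromosome 25, 28716900 to 28752870; log2 fold change -0.89, edgeR adjusted p 2.00e-05). The copy pkma, with 89.2% of the pair's reads, stood at -0.10 in the authors' deposited table (edgeR adjusted p 0.774), so the read-weighted mean of the step was -0.18. Lactate dehydrogenase interconverts pyruvate and lactate. Its muscle-type gene ldha and heart-type gene ldhba stood at 0.09 and -0.07 in the authors' deposited table (edgeR adjusted p 0.803 and 0.843), the latter at 2260 CPM.

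Paralog pairs can be compared where both copies were measured, which held for 11 pairs. At 5 of them 1 copy was called lower and the other was not, at 1 both were lower, and at 5 neither was called. The largest gap in log2 fold change in the authors' deposited table was 1.31 between hk1 and hk2, followed by 0.79 between pkma and pkmb, 0.77 between gpia and gpib, 0.57 between aldoab and aldoaa and 0.48 between gapdhs and gapdh. Those gaps were not tested, since the authors' deposited table gives no error for a difference between genes. The copy called lower supplied most of the pair's reads for gapdh (98.7%), aldoaa (75.9%) and gpib (53.8%, its reads uncertain) in the authors' deposited table. It supplied 0.606% of them for hk2 and 10.8% for pkmb.

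**Figure D2:**
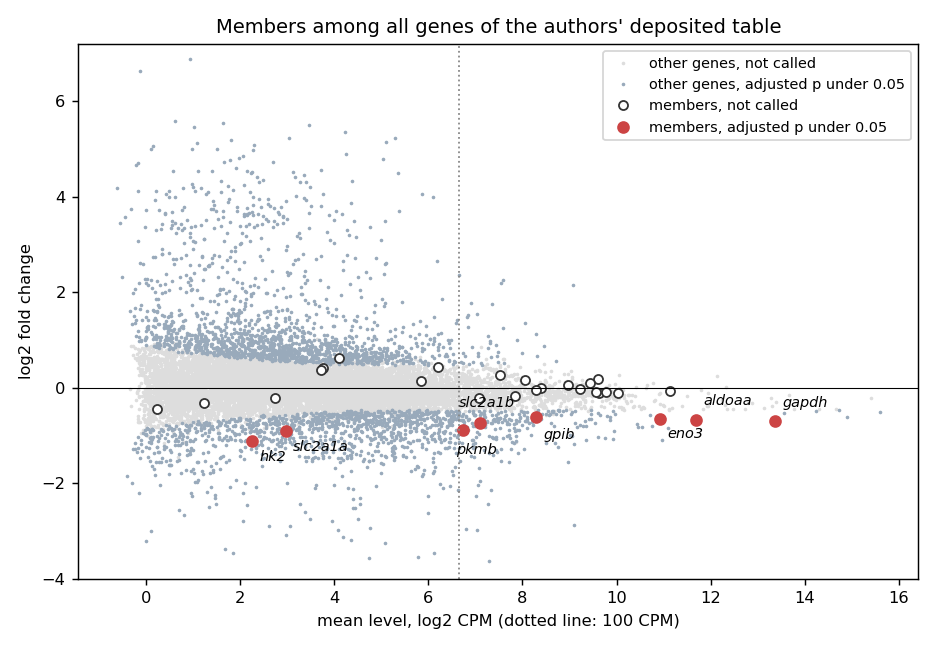
Log2 fold change against mean log2 CPM for all 14962 genes of the authors' deposited table, with the 31 members as large points. The 8 called members run from 4.77 CPM for hk2 to 10596 CPM for gapdh, and 6 of them lie right of the dotted line at 100 CPM, where 19.5% of genes were called lower.

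The 31 genes lie on 16 chromosomes and include close neighbours that did not share a call. The genes gpib and pkma are 3.76 kb apart on chromosome 18, with gpib called lower and pkma not in the authors' deposited table. That gap is counted from the end of the 498 kb annotated span of gpib, whose reads are uncertain. The genes slc2a1a and eno1a are 444 kb apart on chromosome 23, and slc2a1a was called while eno1a was not. The genes eno2 and tpi1a, 3.49 kb apart on chromosome 19, were both without a call. Of the 31 genes, 6 overlap another gene of the authors' deposited table, and no source used here states whether the counting used strand. Besides gpib and eno3 these were tpi1b, pgam2, eno2 and ldha. The overlapping partner of tpi1b, lpcat3, stood at 0.85 with 43.2 CPM (edgeR adjusted p 0.000299 in the authors' deposited table).

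Around the pathway, 120 of 156 genes on 9 lists of connected reactions were in the table, and 15 of them were lower and 7 higher. These 12.5% lower and 5.83% higher stand beside 9.22% and 10.9% of all genes, and the 18.3% called in either direction beside 20.1%, so nothing is read from the share as a whole. Of 14 other transporters, kinases and regulators of the pathway, bpgm, which makes 2,3-bisphosphoglycerate, was lower at -0.63 and adpgk, the ADP-dependent glucokinase gene, higher at 0.59 in the authors' deposited table (edgeR adjusted p 0.0382 and 0.0390). For glycogen, 1 of 18 genes was lower and 1 higher, both subunits of phosphorylase kinase, phkg1b at -0.56 and phka2 at 0.67 in the authors' deposited table (edgeR adjusted p 0.0178 and 0.00292). The pentose phosphate pathway, which branches off at glucose-6-phosphate, had 2 of 9 genes higher and 0 lower per the authors' deposited table, pgls at 0.80 and rpe at 0.59 (edgeR adjusted p 0.00117 and 0.0319).

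Downstream of pyruvate, 2 of 16 genes were lower and 0 higher, pdk2b and pdk2a, whose products are pyruvate dehydrogenase kinases that switch off pyruvate oxidation, at -2.96 and -1.55 in the authors' deposited table (edgeR adjusted p 2.11e-08 and 1.09e-06). The lactate transporter gene slc16a1a was the single call among 3 genes of lactate transport, at -1.08 in the authors' deposited table (edgeR adjusted p 0.000660). It stood at 7.73 CPM, while the others, at 531 and 150 CPM, had log2 fold changes of 0.08 and -0.17 without a call. Of 7 gluconeogenesis genes 2 were lower per the authors' deposited table. They were g6pcb, a copy of the glucose-6-phosphatase gene, at -1.56 and 211 CPM (edgeR adjusted p 8.44e-16) and pck2, of mitochondrial phosphoenolpyruvate carboxykinase, at -0.70 (0.0414). The redox shuttles had 1 of 13 genes lower, gpd1b at -0.71, and 1 higher, gpd1l at 0.73, in the authors' deposited table (edgeR adjusted p 0.00468 and 0.00899). None of the 16 tricarboxylic acid cycle genes was called per the authors' deposited table, with a median of -0.16.

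Hypoxia-inducible factors are known activators of glycolytic genes. Of 24 such factors, regulators and targets, 7 were lower and 2 higher per the authors' deposited table, a lower share of 29.2%. Of all genes, 9.22% were called lower and 10.9% higher. The 3 with the lowest p were bnip3, a mitophagy receptor gene and known target, at -1.16, hif1al2 at -1.26 and hif1al at -0.97 in the authors' deposited table (edgeR adjusted p 5.82e-06, 8.33e-05 and 0.00101). Those 3 stood at 95.4, 7.72 and 103 CPM. Also lower were egln3, vhl, ndrg1a and epas1a, at 8.43, 7.12, 24.8 and 51.7 CPM. The 2 higher genes were egln1a at 0.90 and hif1aa at 0.68 in the authors' deposited table (edgeR adjusted p 0.00722 and 0.0153). They stood at 3.62 and 38.7 CPM. The other 15 genes of the list had no call. Among them were the copies hif1ab at -0.15 and 239 CPM and epas1b at -0.40 and 300 CPM. As the list mixes factors, regulators and targets, its share gives no direction for the pathway. Any part of the 24 genes in the decreases of glycolytic genes was not tested.

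**Figure D3:**
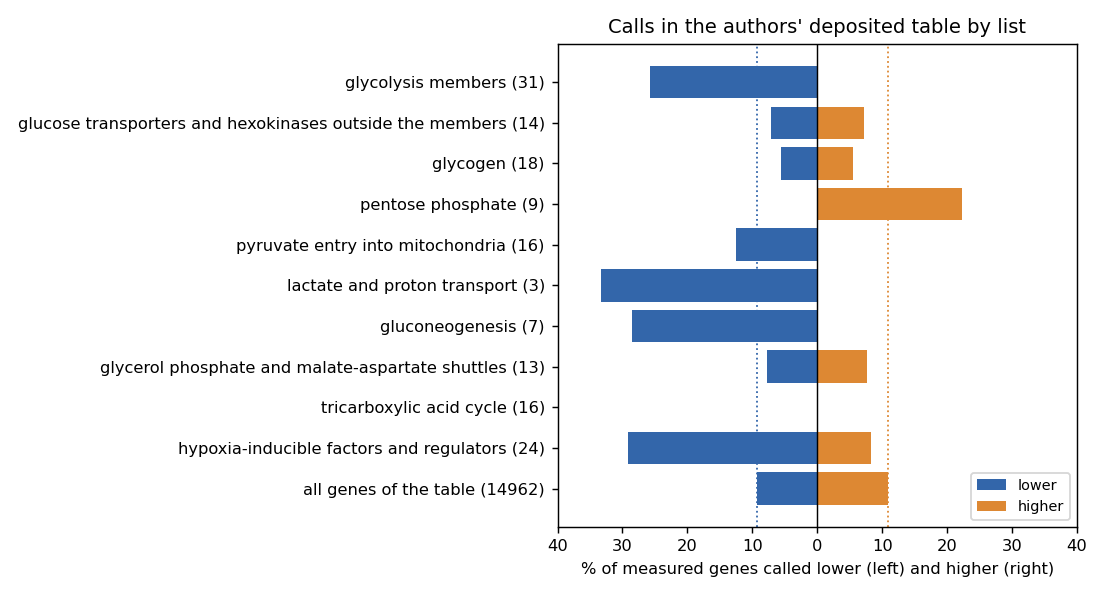
Percent of measured genes called lower (left bars) and higher (right bars) in the authors' deposited table for the glycolysis members and 9 lists of connected reactions, with the number measured in brackets and dotted lines at the shares of all genes, 9.22% and 10.9%. The members have 25.8% lower and none higher, the tricarboxylic acid cycle has no call, and the pentose phosphate list has calls to the right only. The dotted lines do not account for read level: at 100 CPM or more, 19.5% of all genes and 28.6% of members were lower. Only 39 of the 1183 genes at that level were higher.

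Markers of several cell types moved beside the members in the table. Over 13 marker lists, 29 of 75 measured genes, or 38.7%, were lower and 0 higher per the authors' deposited table, beside 9.22% of all genes lower. All 6 neutrophil markers were lower, with a median of -2.03 and a summed level of 16.9 CPM per the authors' deposited table. Of 8 macrophage markers 4 were lower (summed 179 CPM), of 8 endothelial markers 3, and of 7 erythrocyte markers 2 in the authors' deposited table. Of 5 thrombocyte markers 2 were lower, fn1a and itga2b, with a list median of -0.55 per the authors' deposited table. The cardiomyocyte list had 3 of 12 lower, with all 12 values negative and a median of -0.37, per the authors' deposited table. The lower ones were nppa, nppb and myh6. The other 9, among them vmhc, vmhcl, tnnt2a, cmlc1 and ttn.2, had no call. Those 12 markers stood at 96.3 to 43688 CPM. Of the 1183 genes at 100 CPM or more, 19.5% were lower and 885 were negative, with a median of -0.18. The skeletal muscle list had 3 of 9 lower per the authors' deposited table, with a median of 0.06. The lower genes were ckma at 1492 CPM, acta1b at 1410 CPM and ckmb at 19.5 CPM. The other 6 values were positive without a call, at levels between 1.15 and 8.75 CPM in the authors' deposited table. Epidermal markers had 3 of 4 lower per the authors' deposited table, with a summed 351 CPM, and krt5 stood at 0.87 without a call. Fibroblast and epicardial markers had 1 of 8 lower and 5 positive values. The neuron list had 1 of 2 lower and the liver list 1 of 3. Cartilage and retina markers had 0 calls among 2 and 1 measured. Only the cardiomyocyte list was set against genes of its read level. The part of these cell types in the decreases of glycolytic genes was not tested.

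In the 4 count libraries, none of 32 members was called between the labels. The quasi-likelihood test of edgeR, with p adjusted by Benjamini-Hochberg, called 0 of 22428 genes, or 0%, and 128 genes but 0 members had an unadjusted p under 0.05. DESeq2 and limma-voom also called 0 genes, with 20 and 121 at an unadjusted p under 0.05 and 0 members among them. These counts are below what a threshold of 0.05 gives where nothing differs. The tests were thus stricter than their threshold, and the 0 calls are not read as unchanged levels. Fitted log2 fold changes of the members lay between -0.16 and 0.16, and their 95% intervals between -0.69 and 0.65. The 2 groups of libraries did not overlap for 3 of 32 members, gpib above and tpi1b and eno3 below with alfacalcidol, where 21.1% of all tested genes did not overlap. Together the 32 members took between 0.598% and 0.720% of the reads per library, over 31462 genes. The 31 members in the authors' deposited table took 2.62% of its summed CPM, over 14962 genes. The sources were normalized separately, so these levels are set side by side without a test.

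Same-numbered libraries of the 2 labels deviated in opposite directions from their group means, with a correlation of -0.47 across 22428 genes and -0.88 across the 32 members, which are not independent replicates. The lactate dehydrogenase gene ldha stood at 197 and 314 CPM in vehicle replicates 1 and 2 and at 314 and 197 CPM in alfacalcidol replicates 1 and 2. Vehicle 1 and alfacalcidol 2 were thus low and vehicle 2 and alfacalcidol 1 high, with full overlap of the groups. The gene pfkpa did the same, at 84.0 and 131 CPM under vehicle and 130 and 79.4 CPM under alfacalcidol, the widest spread of any member at 1.65-fold. The gene pklr, whose enzyme serves liver and red cells, ran opposite, at 66.9 and 50.7 CPM under vehicle and 42.6 and 62.3 CPM under alfacalcidol. Its log2 fold change was -0.16 ± 0.20 (SE, edgeR adjusted p 1.0). Summed markers of epidermis were high where ldha was low, at 27738 and 17809 CPM under vehicle and 17779 and 26626 CPM under alfacalcidol. Summed retina markers were low there, at 1926 and 2855 CPM under vehicle and 2732 and 1771 CPM under alfacalcidol. Their part in the members' spread was not tested.

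**Figure D4:**
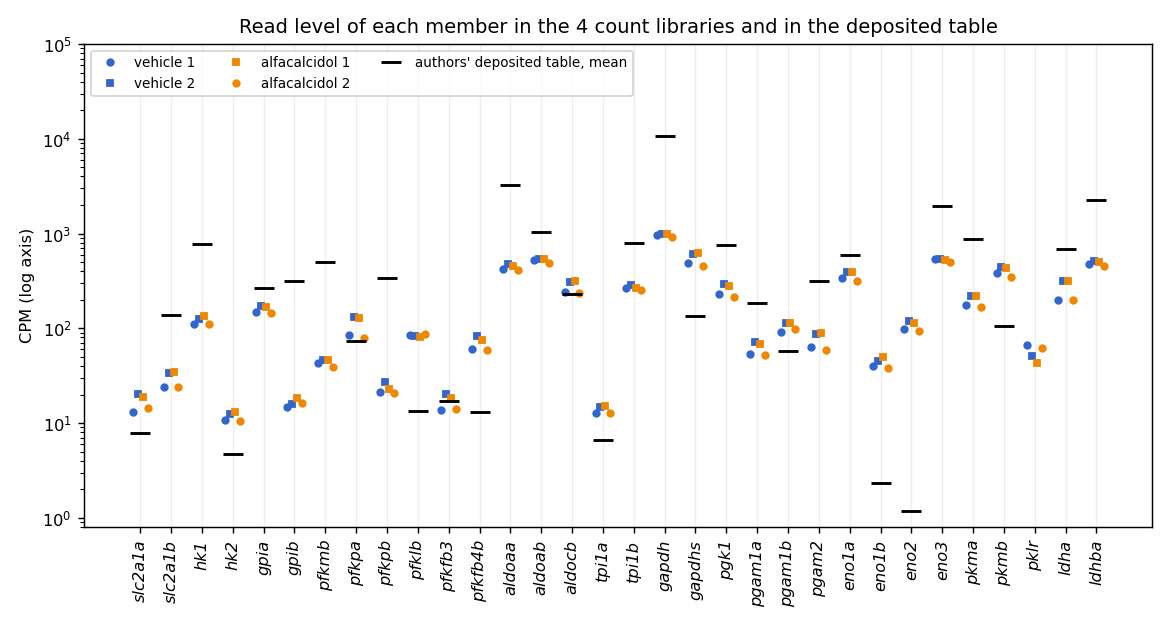
CPM on a log axis of the 32 members in the 4 count libraries (circles for vehicle 1 and alfacalcidol 2, squares for vehicle 2 and alfacalcidol 1), with a dash for the mean level in the authors' deposited table. For ldha the 2 squares lie at 314 CPM and the 2 circles at 197 CPM, and the dashes of gpib, gapdh and eno2 lie far from their points.

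The 8 genes called in the table showed no common direction between the labels in the libraries. The transporter gene slc2a1a was at 13.1 and 20.05 CPM under vehicle and 18.8 and 14.4 CPM under alfacalcidol, a log2 fold change of 0.00 with an interval of -0.52 to 0.51. Its copy slc2a1b was at 24.1 and 33.8 CPM under vehicle and 34.7 and 23.9 CPM under alfacalcidol (0.01, interval -0.50 to 0.53). For both transporters the groups overlapped and the 2 libraries within a label differed more than the labels did. The hexokinase gene hk2 was at 10.9 and 12.6 CPM under vehicle and 13.0 and 10.4 CPM under alfacalcidol (-0.01, interval -0.36 to 0.35). The isomerase gene gpib was at 14.9 and 16.1 CPM under vehicle and 18.3 and 16.3 CPM under alfacalcidol (0.16, interval -0.09 to 0.41). It alone of the 8 was higher in both alfacalcidol libraries, where the table had it lower.

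The aldolase gene aldoaa was at 427 and 475 CPM under vehicle and 458 and 413 CPM under alfacalcidol (-0.05, interval -0.27 to 0.17). For gapdh the values were 968 and 998 CPM under vehicle and 979 and 909 CPM under alfacalcidol (-0.06, interval -0.24 to 0.13). The enolase gene eno3 was at 539 and 537 CPM under vehicle and 531 and 499 CPM under alfacalcidol (-0.06, interval -0.24 to 0.12). The pyruvate kinase gene pkmb was at 387 and 447 CPM under vehicle and 433 and 350 CPM under alfacalcidol (-0.09, interval -0.39 to 0.21). Of these 4 genes, eno3 alone had both alfacalcidol libraries below both vehicle libraries. All 8 had an edgeR adjusted p of 1.0, and all 8 intervals exclude the log2 fold change that the authors' deposited table gives for the gene. The libraries did not carry the RNA profile of the table, and the 8 genes were picked by their calls in it. The intervals are therefore no test of the table's values. Over all 32 members 24 fitted values were negative with a median of -0.05, but without vehicle replicate 2 the count was 7 and without alfacalcidol replicate 2 it was 6.

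Which paralog supplied the reads differed between the table and the libraries at several steps. A share of reads within a pair does not depend on scaling, and for the same pair transcript length bears on both sources alike. The gene pfkpa supplied 17.9% of its pair's reads in the authors' deposited table and between 79.2% and 85.1% in the 4 libraries. The gene gpia supplied 46.2% in the authors' deposited table against 89.8% to 91.5%, and pkma 89.2% against 31.3% to 33.8%. The gpia share rests on the uncertain reads of gpib. Thus pfkpb and pkma held most of the pair's reads in the heart table, and pfkpa and pkmb in the libraries. For pgam1a the share was 76.1% in the authors' deposited table and 34.8% to 38.7% in the libraries, for aldoaa 75.9% and 45.0% to 46.9%, and for gapdh 98.7% and 61.0% to 66.6%. The gapdh pair and the remaining pairs kept the copy with more reads in both sources. Among the latter was ldhba, at 76.7% in the authors' deposited table and 61.5% to 70.8% in the libraries.

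Between labels the mean shares differed by between -1.47 and 1.15 percentage points, alfacalcidol minus vehicle. At 5 of the 11 pairs the difference changed sign when 1 library was left out, among them ldha (-3.26 to 5.32 percentage points) and gapdh (-3.27 to 2.24). The lower end was the pgam1a share, at 37.8 ± 1.34% under vehicle and 36.3 ± 2.06% under alfacalcidol (SD, n = 2 each), with overlapping groups and a difference of -2.93 to -0.014 percentage points with 1 library left out. The upper end was the pkma share, at 0.375 to 1.92 percentage points with 1 library left out. The gpia share was 91.2 ± 0.358% under vehicle and 89.9 ± 0.236% under alfacalcidol (SD, n = 2 each), and the groups did not overlap. The shares of hk1 and eno1a also did not overlap between labels, with differences of 0.293 and -0.476 percentage points. That makes 3 of 11 pairs without overlap, beside 21.1% of all tested genes whose levels did not overlap, and nothing is read from it. No test of the shares was made.

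Some single genes also stood at different read levels in the sources. The neuronal enolase gene eno2 was at 1.18 CPM per the authors' deposited table and at 94.8 to 119 CPM in the libraries. The gene eno1b was at 2.35 CPM per the authors' deposited table and at 37.7 to 49.4 CPM in the libraries. In the other direction, slc2a1b stood at 137 CPM per the authors' deposited table and at 23.9 to 34.7 CPM in the libraries, and pfkmb at 500.3 against 39.3 to 46.4 CPM.

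**Figure D5:**
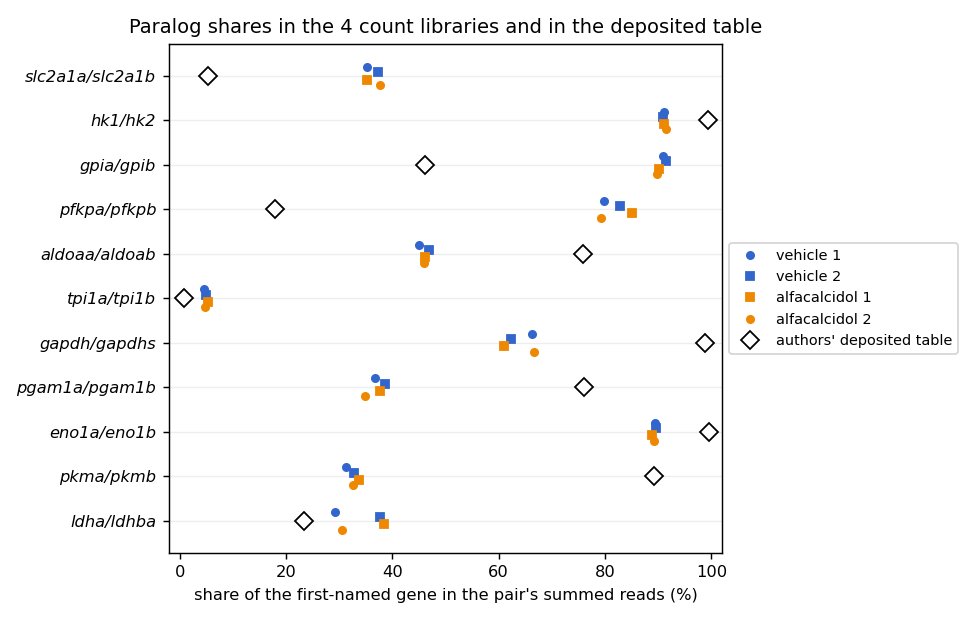
Share of the first-named gene in the summed reads of its paralog pair, in percent, for 4 count libraries (circles and squares) and the authors' deposited table (diamonds). Points of the 4 libraries lie close together for each pair, and the diamonds of pfkpa, gpia and pkma lie furthest from them.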

How the data were processed

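Read counts per Ensembl gene were deposited by the authors for 4 libraries, 2 vehicle and 2 alfacalcidol by their titles. CASAVA, TopHat2, featureCounts and edgeR on GRCz10 are named per the submitters' processing notes, without versions, strand setting or treatment of shared reads, so counts of close paralogs are uncertain. For 14962 genes the authors deposited log2 values (fold change and mean CPM) and p-values before and after adjustment. Recomputing Benjamini-Hochberg from the first p column gave the second.

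Members were matched by symbol to the table, and pklr through a table of gene names. The count model was the quasi-likelihood fit of edgeR 4.0.16 (R 4.3.3) with TMM scaling, filterByExpr and a group term, tested on both sides and checked on simulated counts. It kept 22428 genes and all 32 members, with Benjamini-Hochberg adjustment over all genes and a threshold of 0.05. Its F-test returns no standard error. The one printed is the absolute log2 fold change divided by the square root of F, and the 95% intervals use it with a t quantile. Printed CPM are reads scaled to the library total of 31427486 to 39572163 counts, and read-weighted means weight each copy's log2 fold change by CPM.

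The alternatives tried were scaling by RLE, by the upper quartile or not at all, testing without a low-count filter, DESeq2 1.42.0, limma-voom 3.58.1, the replicate number as a block, each library left out, adjusted p thresholds of 0.1 and 0.01, and 1.5-fold and 2-fold minimums. Chosen after seeing the data were the crossed pairing, the count of negative values and the split at 100 CPM. All members are described, and of each connected list at most the 3 called genes with the lowest adjusted p. For hypoxia-inducible factors all called genes are named, a choice made after their values were seen. The members and lists were chosen with earlier results of these data known. Other genes named, such as cox5ab and lpcat3, were picked after their values were seen.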

Additional observations from a re-analysis of the deposited data

How the results depend on the processing

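In the authors' deposited table, 8 members were called, and 1 of them, hk2, was also at least 2-fold changed. Of the 22 calls on connected lists, 14 passed an adjusted p of 0.01 and 6 were at least 2-fold, and the 1.5-fold minimum and the threshold of 0.1 left both counts within 1.5 times. In the count libraries 0 members were called under every alternative run. The count of negative members, 24, ran from 6 to 29 with 1 library left out. Same-numbered libraries deviated in opposite directions (correlation of deviations -0.47 over 22428 genes), so the replicate number does not pair them. With the replicate block 0 members and 0 genes were called, and on the crossed pairing 0 members and 7 genes. On the crossed pairing, chosen after the data were seen, 788 genes and 2 members had an unadjusted edgeR p under 0.05. The members were pkmb (0.026) and pklr (0.0027). In the fit reported, 128 genes and 0 members did. The log2 fold change of slc2a1a, 0.00 in the fit reported, was 0.015 with the replicate block, 0.012 on the crossed pairing and 0.0030 by limma-voom, where slc2a1b was -0.0022. Of 72 such values for 9 members, 68 kept their sign, and the cause was not tested for the rest. With 1 library left out, log2 fold changes ran from -0.27 to 0.34 for slc2a1a, -0.29 to 0.28 for slc2a1b, -0.18 to 0.15 for hk2, -0.13 to 0.032 for aldoaa, -0.26 to 0.056 for pkmb and -0.46 to 0.079 for pklr. Those of gpib, gapdh and eno3 kept their sign. With 1 library left out, the difference in paralog share between labels changed sign at 5 of 11 pairs, with ranges of -3.26 to 5.32 percentage points for ldha, -3.27 to 2.24 for gapdh, -2.12 to 3.73 for pfkpa, -1.11 to 1.39 for slc2a1a and -0.760 to 1.07 for aldoaa. A fit without 1 library leaves a lone sample in its group, assumed to vary like the other group.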
